A study of Mus musculus with 29 samples.

Results

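The windows that the methylation table names Galnt2l formed 1 block of chromosome 8 (chr8:119958194-124347481, mouse genome build GRCm38), with gaps of at most 817 bp between them, and were chosen by that name alone. The block held 1466 of the 260686 windows of the table, and 1444 of them had enough values to be tested. Galnt2l took more windows than any other gene name in the table, ahead of Fgfr2 with 633. The identifier behind the name belongs to a read-through gene called Gm20388 in the GENCODE M21 annotation, with 16 exons over chr8:119910841-124345722. Of these exons, 15 lay within Galnt2 at the far end and the remaining exon lay near Usp10, so that a single intron of 4.38 Mb covered nearly the whole block. By position, the block overlapped 72 protein-coding genes, 51 5S rRNA genes and 85 further annotated genes, and none of these had its own name in the table. Galnt2 itself accounted for 40 windows, or 2.73% of the block, and 645 windows (44.0%) shared no base with a protein-coding gene. Each window was therefore given to the annotated gene that shared most bases with it, and gene names below are by position and not by the label.

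CpG methylation is the addition of a methyl group to cytosines that precede guanines. Most of a mammalian genome is highly methylated, whereas CpG-dense promoters (CpG islands) are usually unmethylated, and distal regulatory regions of a cell type tend to lose methylation in the cells that use them. The block carries several genes with known roles in blood and lung cells. Irf8 encodes a transcription factor needed for monocytes, dendritic cells and B cells, Cbfa2t3 a transcriptional corepressor of blood progenitors, Zfpm1 a cofactor of GATA factors, and Cyba a subunit of the phagocyte NADPH oxidase. Foxf1, Foxc2 and Foxl1 are a cluster of forkhead transcription factor genes used in mesenchyme and vessels, with Foxf1 best known in lung mesenchyme and endothelium. Piezo1 encodes a mechanically gated cation channel.

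The libraries were enzymatic methyl-seq libraries of right lung tissue from 13-week-old BALB/c offspring labelled female, taken after a methacholine lung function test. Sham offspring (n = 7) came from dams given saline, PM offspring (n = 7) from dams given PM2.5 particles into the nose from before mating to weaning, and both breathed nebulised saline in place of OVA. Sham-OVA (n = 7) and PM-OVA (n = 8) offspring had the same maternal treatments and were sensitised with ovalbumin (OVA) in Al(OH)3 and challenged with OVA aerosol, a model of allergic airway disease. The methods describe sensitisation for each offspring, so the saline controls may have been sensitised too. The labels do not tie animals to dams, so littermates may be among them. Each value was the percent of CpG calls methylated in a window, which held a median of 100 CpG cytosines with both strands counted. There are no read counts beside it, so that the depth per window is unknown here. A library went against its label, as Sham replicate 1 had values in 1224 of 1230 Y-chromosome windows where the other libraries had 29 to 46. Lung tissue is a mixture of cells, and a change in the share of a cell type cannot be told apart from a change within cells in any of the differences below.

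Sequences are shown 5′ to 3′ with each CpG in capitals, for the window with the largest OVA difference and, beside it, for promoters of Cbfa2t3 and Irf8, whose levels are described below. The opening bases of the Zfpm1 exon window with the largest OVA difference, chr8:122336032-122336331 on the plus strand, held 44 CpG in 300 bases.
Zfpm1 coding exon: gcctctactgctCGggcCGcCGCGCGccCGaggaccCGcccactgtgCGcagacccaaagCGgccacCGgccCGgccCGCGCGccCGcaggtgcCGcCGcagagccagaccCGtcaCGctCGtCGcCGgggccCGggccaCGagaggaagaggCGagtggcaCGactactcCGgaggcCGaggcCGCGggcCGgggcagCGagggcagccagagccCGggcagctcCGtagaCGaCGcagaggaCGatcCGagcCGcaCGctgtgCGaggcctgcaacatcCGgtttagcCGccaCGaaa
Cbfa2t3 has 2 start sites in RefSeq (build GRCm38.p6, minus strand), and their promoter sequences differed in CpG content. The distal promoter at chr8:122699060-122699359 held 10 CpG, more than 56.5% of the 32851 promoter sequences of the same length, and the internal promoter at chr8:122678126-122678425 held 53, a number exceeded by 0.35% of them.
Cbfa2t3 distal promoter: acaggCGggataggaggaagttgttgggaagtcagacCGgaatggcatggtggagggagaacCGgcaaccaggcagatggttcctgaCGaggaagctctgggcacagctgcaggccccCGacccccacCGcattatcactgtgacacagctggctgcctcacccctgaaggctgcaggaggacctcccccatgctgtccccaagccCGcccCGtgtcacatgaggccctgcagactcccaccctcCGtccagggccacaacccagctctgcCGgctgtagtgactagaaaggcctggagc
Cbfa2t3 internal promoter: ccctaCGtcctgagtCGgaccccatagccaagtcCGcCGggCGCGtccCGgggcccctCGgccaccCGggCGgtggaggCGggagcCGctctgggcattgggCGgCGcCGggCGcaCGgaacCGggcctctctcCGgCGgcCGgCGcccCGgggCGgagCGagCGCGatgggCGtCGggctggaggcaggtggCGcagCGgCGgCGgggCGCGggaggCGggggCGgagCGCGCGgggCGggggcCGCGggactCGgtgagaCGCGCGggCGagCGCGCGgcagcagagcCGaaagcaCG
The Irf8 promoter at chr8:120736108-120736407 (RefSeq, plus strand) held 38 CpG.
Irf8 promoter: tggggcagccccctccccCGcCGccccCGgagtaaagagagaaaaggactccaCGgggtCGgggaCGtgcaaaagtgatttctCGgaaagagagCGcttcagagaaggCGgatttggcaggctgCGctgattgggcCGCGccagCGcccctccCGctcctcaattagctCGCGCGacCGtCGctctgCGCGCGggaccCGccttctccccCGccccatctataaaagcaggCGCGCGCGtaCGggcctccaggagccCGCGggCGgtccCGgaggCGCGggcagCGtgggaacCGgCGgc

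Methylation along the block followed the usual division into highly methylated gene bodies and unmethylated starts. Of the tested windows, 79.4% were at or above 50% in Sham and 9.42% were under 10%, beside 85.6% and 6.91% of all tested windows. The block was CpG-richer than most of the table, with a median of 1.69 CpG per 100 bp against 1.06, and its windows were shorter (median 2972 bp against 4772 bp). The 67 windows that held the start of a protein-coding gene had a median Sham level of 4.23%, whereas windows with an exon but no start had a median of 79.2% and windows in introns alone 71.1%. Among the 143 windows with 5 or more CpG per 100 bp, 83.9% were under 10%, and the range still reached 98.4% at an intron window of Def8 (chr8:123433184-123433977), the window of the block nearest to full methylation. The lowest level was 0.022% in Sham, next to the start of Ccsap (chr8:123859489-123860062). Window length ran from 217 bp in Zcchc14, at 1.37% ± 0.57 (SD, n = 7), to 9772 bp in an Ankrd11 intron, at 59.2% ± 1.33.

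**Figure D1:**
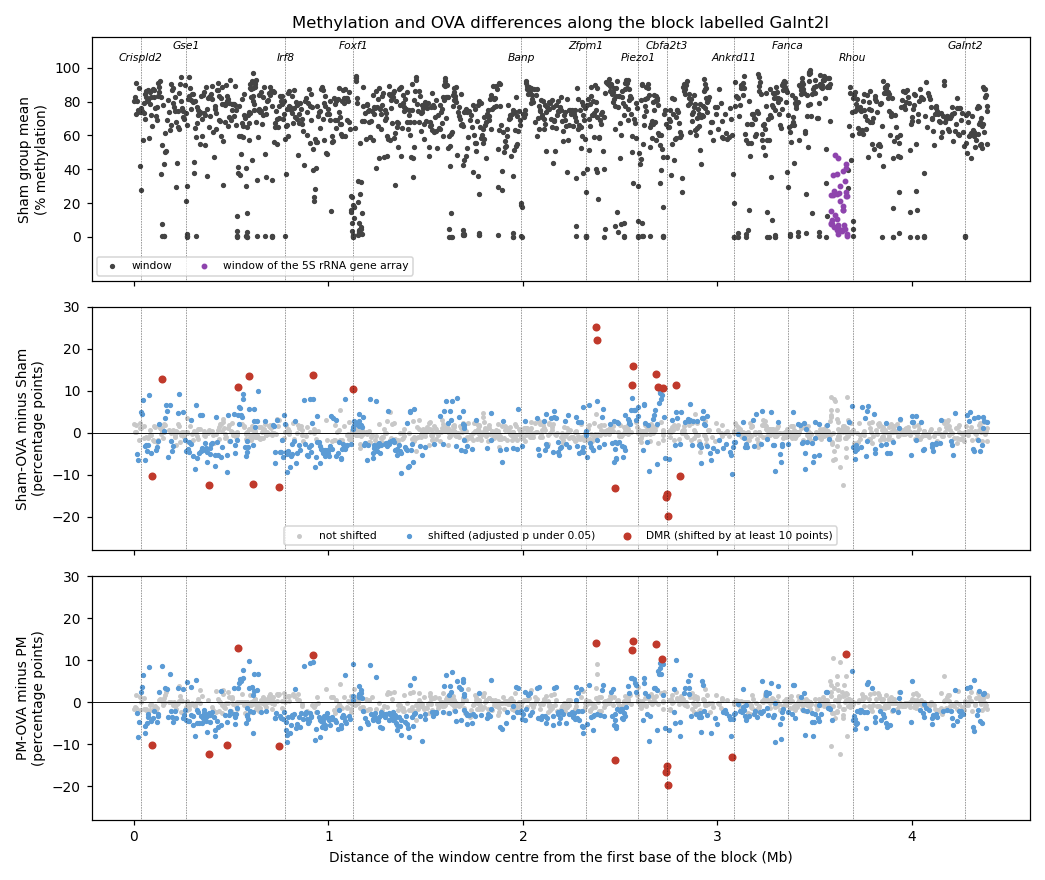
Sham group mean of each tested window (top, % methylation) and the OVA difference in Sham (middle) and in PM offspring (bottom, percentage points), against the distance from the first base of the block in Mb. Red points are windows shifted by at least 10 points (22 in Sham and 17 in PM), dotted lines mark gene starts, and the strongest differences sit around Zfpm1, Piezo1 and Cbfa2t3.

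Averaged over its tested windows, the block was methylated at 63.4% ± 0.31 in Sham (SD, n = 7), 63.2% ± 0.53 in Sham-OVA (n = 7), 63.7% ± 0.43 in PM (n = 7) and 62.9% ± 0.41 in PM-OVA (n = 8). Library means ran from 62.8% to 63.8% in Sham and from 62.3% to 63.7% in Sham-OVA, so that these groups overlapped. In PM they ran from 63.1% to 64.4% and in PM-OVA from 62.3% to 63.6%, again with overlap. Over all tested windows the means were 69.1% ± 0.37, 68.8% ± 0.60, 69.4% ± 0.46 and 68.4% ± 0.39 in the same order, above the block in every group.

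OVA challenge changed methylation in both directions within the block, in both maternal arms. A differentially methylated region (DMR) was a window with a Benjamini-Hochberg adjusted p under 0.05 over all tested windows (limma) and a difference of at least 10 percentage points, and a shifted window was 1 with that adjusted p and any difference. In Sham offspring, 22 of 1444 tested windows of the block were DMRs (1.52%, beside 0.775% of all tested windows), and 13 of these had gained methylation with OVA (beside 0.479%) and 9 had lost it (beside 0.296%). In PM offspring, 17 were DMRs (1.18%, beside 0.584%), with 8 gains (beside 0.263%) and 9 losses (beside 0.321%). Without PM-OVA replicate 6 there were 21, of which 13 were gains (beside 1618 and 767 of all tested windows). Shifted windows were 509 in Sham (35.2%, beside 35.6%) and 575 in PM (39.8%, beside 44.1%). Among them 205 were higher and 304 lower in Sham-OVA (14.2% and 21.1% of the block, beside 13.3% and 22.3%), and 150 and 425 in PM-OVA (10.4% and 29.4%, beside 9.26% and 34.8%). This split depended on scaling, since centring each library on its median gave 307 higher among 556 shifted windows in Sham and 321 among 563 in PM. Over all tested windows centring gave 47406 higher among 93467 shifted windows in Sham and 49017 among 97389 in PM. All centred counts below stand beside these. With centring there were 22 DMRs in Sham and 21 in PM, of which 15 were higher in each arm. Over all tested windows there were then 2113 and 1576 DMRs, 1441 and 1004 of them higher. Without Sham replicate 1, the library that went against its label, the Sham counts were 22 DMRs, 12 of them higher, and 475 shifted windows, 186 of them higher. Over all tested windows these counts were 1945, 1172, 85159 and 32019 in the same order.

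The arms shared 13 DMRs, 6 of them higher after OVA, and no DMR of 26 in all had a difference between the arms that passed adjustment (smallest interaction adjusted p = 0.554, limma). Of the 9 windows that were DMRs in Sham alone, 8 were shifted the same way in PM, and of the 4 that were DMRs in PM alone, 3 were shifted the same way in Sham. Of the 509 windows shifted in Sham and the 575 shifted in PM, 396 were shifted in both, all in the same direction. Across the 1444 tested windows the differences of the arms, which share no library, had a Pearson r of 0.85, beside 0.88 over all tested windows. Of the 26 DMRs, 19 had a Sham level between 30% and 70%, as did 474 of the 1444 tested windows (32.8%). By position 12 lay in introns alone and 1 was a start window, kinds that made up 304 and 67 of the 1444 tested windows. In the Sham arm 21 of 22 DMRs had no overlap between the values of the 2 groups (8.58% of all tested windows), and in the PM arm 13 of 17 (12%). The definition of a DMR largely fixes these counts.

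Immune cell marker genes elsewhere in the genome had lower DMRs alone with OVA. Over 187 windows named for 28 of 30 such genes, 16 DMRs were lower and 0 higher in Sham-OVA, and 15 lower and 0 higher in PM-OVA, beside 0.296% and 0.321% of all tested windows that were lower DMRs. The library means over these windows ran from 66.5% to 67.9% in Sham and 64.4% to 65.5% in Sham-OVA, and from 66.97% to 67.9% in PM and 64.2% to 65.5% in PM-OVA, with no overlap in either arm. Windows of 29 resident lung cell marker genes (281 windows) held 3 higher and 1 lower DMR in Sham-OVA (beside 0.479% and 0.296% of all tested windows), and their library means overlapped, from 64.2% to 65.9% in Sham and 64.8% to 66.7% in Sham-OVA. In PM-OVA they held 1 higher and 1 lower DMR (beside 0.263% and 0.321%), and the library means again overlapped, from 64.3% to 66.3% in PM and 64.7% to 66.02% in PM-OVA. The median difference over their windows was 0.47 points in Sham and -0.19 in PM, and over the immune marker windows -1.11 and -1.63, beside -0.41 and -1.03 over all tested windows. The part of cell composition in the differences of the block was not tested.

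Cbfa2t3 (chr8:122625141-122699109, minus strand) had the most DMRs of any gene in the block. Its DMRs near the distal start were lower after OVA, and those further into the gene were higher. Of its 27 windows, 13 were higher and 4 lower in Sham-OVA, and 12 higher and 4 lower in PM-OVA, beside 13.3% higher and 22.3% lower of all tested windows in Sham and 9.26% and 34.8% in PM. With centring, 14 were higher and 4 lower in Sham-OVA and 17 and 4 in PM-OVA. The largest decrease lay just outside the gene, in a window at chr8:122700109-122704202 centred 3.0 kb before the distal start, and sharing bases with the antisense gene Gm10612. Its values were 61.7% to 69.1% (median 64.05%) in Sham, 37.4% to 53.03% (median 44.1%) in Sham-OVA, 57.7% to 68.1% (median 60.2%) in PM and 37.4% to 47.2% (median 41.2%) in PM-OVA. All OVA libraries lay below all libraries without OVA of the same arm. Methylation fell by 19.9 points in Sham (log2 ratio -1.16 ± 0.13 (SE), adjusted p = 1.81e-07) and fell by 19.7 points in PM (log2 ratio -1.14 ± 0.13 (SE), adjusted p = 8.30e-08).

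The distal start window of Cbfa2t3 (chr8:122696382-122699991), which contains the distal promoter shown above, was the sole start window of the block called as a DMR. It was at 43.8% to 52.04% (median 47.3%) in Sham and 29.5% to 37.7% (median 33.2%) in Sham-OVA, and at 44.4% to 51.8% (median 46.7%) in PM and 29.6% to 35.5% (median 32.4%) in PM-OVA. The groups did not overlap in either arm, and the level fell by 14.6 points in Sham (log2 ratio -0.87 ± 0.08 (SE), adjusted p = 4.49e-09) and fell by 15.3 in PM (log2 ratio -0.91 ± 0.07 (SE), adjusted p = 8.71e-10). The intron window that follows (chr8:122691807-122696262) fell by 15.4 points in Sham, from 66.7% ± 1.84 to 51.3% ± 3.39, and fell by 16.7 in PM, from 66.2% ± 2.49 to 49.5% ± 2.17 (adjusted p = 4.29e-09 and 5.73e-10, limma). By contrast, the windows over the CpG-dense internal promoter stayed near 0, with 0.63% ± 0.44, 1.36% ± 0.74, 0.47% ± 0.57 and 2.18% ± 0.65 at chr8:122677934-122678207, where the OVA difference was 0.73 points in Sham (adjusted p = 0.0543) and 1.72 in PM (adjusted p = 4.14e-05, limma).

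Downstream of the internal promoter, most shifted windows of Cbfa2t3 gained methylation with OVA. In the window next to it (chr8:122675829-122677908), the level rose from 17.9% ± 2.70 to 28.5% ± 3.50 in Sham and from 18.8% ± 2.15 to 27.97% ± 2.75 in PM, with differences of 10.6 and 9.15 points (adjusted p = 1.84e-06 and 6.83e-06, limma), the latter 10.1 with each library centred. The Sham difference fell under 10 points without Sham-OVA replicate 1 (9.92) or replicate 6 (9.81). Further into the gene, 58.2 kb from the distal start, the intron window at chr8:122639475-122642287 had values of 55.2% to 59.6% (median 57.4%) in Sham, 65.4% to 77.6% (median 72.8%) in Sham-OVA, 52.2% to 61.4% (median 58.1%) in PM and 64.2% to 74.6% (median 72.02%) in PM-OVA. Every OVA library was above every library without OVA of its arm, and methylation rose by 14.1 points in Sham (log2 ratio 0.89 ± 0.11 (SE), adjusted p = 4.95e-07) and 13.9 in PM (log2 ratio 0.87 ± 0.10 (SE), adjusted p = 2.65e-07). Another intron window (chr8:122652206-122655321) rose by 10.9 points in Sham and 7.29 in PM, and 1 at chr8:122671825-122675768 by 9.03 and 10.3 (adjusted p from 7.98e-09 to 7.24e-05, limma). The PM difference of the latter was under 10 points without PM replicate 3 (9.91), 5 (9.28) or 6 (9.54) or PM-OVA replicate 2 (9.88). An exon window 53.6 kb from the distal start went the other way. Its differences were -7.40 points in Sham and -6.55 in PM (adjusted p = 2.90e-05 and 4.14e-05, limma). Apart from the window at chr8:122639475-122642287, these gene body windows were not among the 12 largest differences of either arm and were named after their values were seen.

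**Figure D2:**
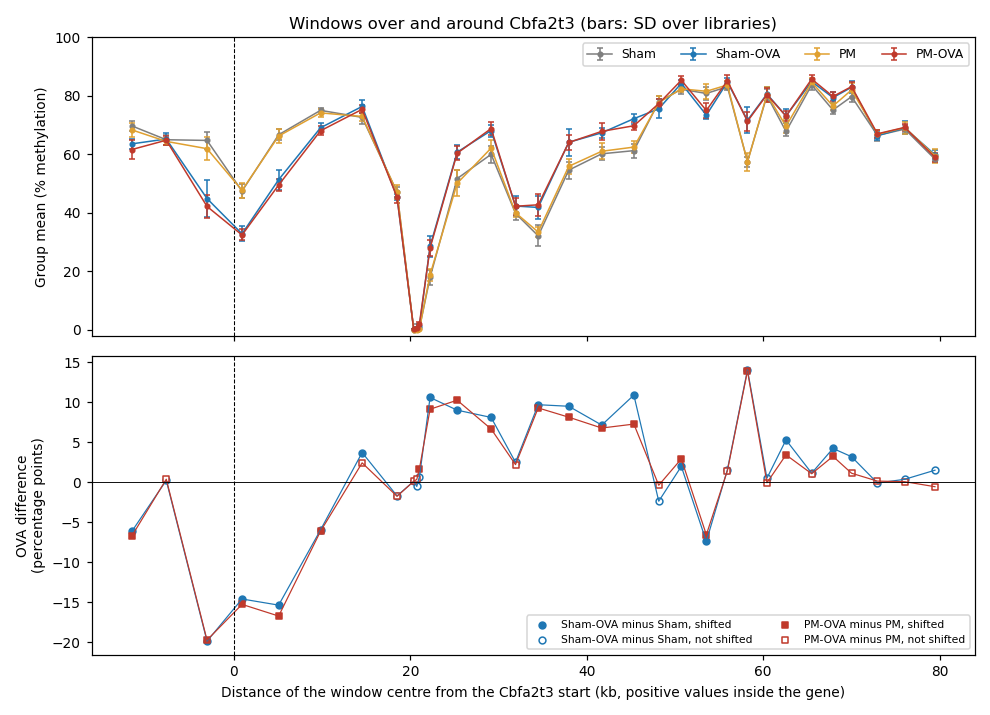
Group means with SD over libraries (top, % methylation) and OVA differences in both arms (bottom, percentage points, filled where shifted) for the windows over Cbfa2t3, against the distance from its distal start in kb. Around the distal start the OVA groups lie below their controls, the internal promoter is unmethylated in all groups, and most windows beyond it lie above their controls.

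Zfpm1 (chr8:122282141-122337251) held the largest OVA difference of the block, in adjacent coding windows of 346 and 406 bp near its 3′ end, and the opening bases of the former are shown above. At chr8:122336032-122336377, values were 31.3% to 49.9% (median 39.3%) in Sham, 57.03% to 77.1% (median 63.7%) in Sham-OVA, 32.2% to 52.1% (median 38.1%) in PM and 40.2% to 63.9% (median 55.3%) in PM-OVA. Sham-OVA libraries were all above Sham libraries, whereas PM and PM-OVA overlapped. The level rose by 25.04 points in Sham (log2 ratio 1.48 ± 0.22 (SE), adjusted p = 1.04e-05) and by 14.1 in PM (log2 ratio 0.82 ± 0.22 (SE), adjusted p = 0.00313). The neighbouring window (chr8:122336378-122336783) rose by 22.01 points in Sham, from 38.4% ± 8.39 to 60.4% ± 9.53 (adjusted p = 4.51e-04), and differed by 9.05 in PM, from 41.1% ± 7.26 to 50.2% ± 10.8 (adjusted p = 0.103, limma). Without PM-OVA replicate 1 the latter was 11.3 points and passed (adjusted p = 0.0403). The PM difference minus the Sham difference was -10.9 and -12.96 points in the 2 windows, with unadjusted interaction p of 0.0426 and 0.0487 and adjusted p of 0.668 and 0.674 (limma), so that neither passed. Libraries of 1 group spread widely here, with SDs of 5.99 to 8.59 points at the former window against a median of 1.64 over the block outside the 5S array. Across all 25 windows of Zfpm1, 5 were higher and 6 lower in Sham-OVA (beside 13.3% and 22.3% of all tested windows), and 2 and 5 in PM-OVA (beside 9.26% and 34.8%), and centring turned this balance to 6 higher and 4 lower in Sham-OVA and 4 and 3 in PM-OVA.

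Cyba had a single DMR, an intron window 2.7 kb from its start (chr8:122428759-122431797). Its values were 75.1% to 78.7% (median 76.9%) in Sham, 61.9% to 67.2% (median 62.9%) in Sham-OVA, 70.8% to 78.6% (median 75.8%) in PM and 57.9% to 63.5% (median 61.4%) in PM-OVA, with no overlap within an arm. Methylation fell by 13.3 in Sham (log2 ratio -0.91 ± 0.08 (SE), adjusted p = 6.40e-09) and fell by 13.9 in PM (log2 ratio -0.92 ± 0.08 (SE), adjusted p = 1.99e-09). The window that held the Cyba start, which shares most bases with Mvd, fell by 3.82 points in Sham and fell by 4.37 in PM (adjusted p = 3.87e-04 and 3.76e-05, limma).

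Irf8 (chr8:120736358-120756694) had shifted windows within its body, and its promoter was near 0 in all groups. Of its 9 windows 4 were lower and 0 higher in Sham-OVA (beside 22.3% and 13.3% of all tested windows), and 5 lower and 0 higher in PM-OVA (beside 34.8% and 9.26%), and with each library centred 2 were higher and 4 lower in PM-OVA. The start window was at 0.37% ± 0.22, 0.52% ± 0.33, 0.21% ± 0.23 and 0.28% ± 0.17 and was not shifted (adjusted p = 0.441 and 0.603, limma). The window that follows (chr8:120736392-120739044) ranged from 33.9% to 41.4% (median 37.3%) in Sham and 31.03% to 34.04% (median 32.7%) in Sham-OVA, and from 34.8% to 41.2% (median 38.2%) in PM and 30.4% to 33.4% (median 31.5%) in PM-OVA. It fell by 4.54 points in Sham and fell by 6.58 in PM (adjusted p = 3.77e-04 and 1.62e-06, limma), and the groups overlapped in Sham alone. The strongest of the gene, 9.1 kb from the start (chr8:120744201-120746642), fell from 75.3% ± 2.32 to 65.9% ± 2.61 in Sham and from 75.2% ± 2.15 to 65.7% ± 2.91 in PM (differences of -9.40 and -9.43 points, adjusted p = 3.03e-06 and 1.31e-06), just under the 10-point minimum. The windows 6.4 and 12.1 kb from the start differed by -5.03 and -4.40 points in Sham and by -7.90 and -3.54 in PM, and all 4 shifts passed. The window at chr8:120739063-120741331 was shifted in PM alone (fell by 4.65, adjusted p = 0.0208), with a difference of 1.72 points in Sham (adjusted p = 0.43) and an unadjusted interaction p of 0.00991. That interaction did not pass adjustment, as the smallest adjusted interaction p of the whole block was 0.551 (limma).

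Intergenic sequence on both sides of Irf8 carried DMRs of opposite direction. A window 33.6 kb before its start (chr8:120701429-120704071) was at 74.3% to 78.6% (median 77.7%) in Sham, 60.8% to 68.4% (median 63.8%) in Sham-OVA, 68.5% to 79.00% (median 77.03%) in PM and 60.9% to 70.1% (median 64.5%) in PM-OVA. It fell by 12.9 points in Sham (log2 ratio -0.88 ± 0.10 (SE), adjusted p = 1.10e-07) and fell by 10.5 in PM (log2 ratio -0.72 ± 0.09 (SE), adjusted p = 8.07e-07), and the groups overlapped in PM alone. The PM difference came to under 10 points with each library centred (-9.54) and without PM replicate 5 (-9.93) or PM-OVA replicate 2 (-9.94). A window 141.2 kb after the start (chr8:120876146-120879019) rose by 13.7 points in Sham, from 39.6% ± 4.53 to 53.3% ± 3.40, and by 11.3 in PM, from 39.4% ± 3.90 to 50.7% ± 3.60 (adjusted p = 5.89e-06 and 3.43e-05, limma), without overlap in either arm. Between Irf8 and Fendrr, a gene-poor interval of 298 kb, 86 windows were tested. Of these 11 were higher and 45 lower in Sham-OVA (beside 13.3% and 22.3% of all tested windows) and 6 and 52 in PM-OVA (beside 9.26% and 34.8%), and with centring 15 higher and 38 lower in Sham-OVA and 14 and 36 in PM-OVA. Their median differences were -2.11 and -3.06 points. The median over the tested windows of the whole block was -0.082 and -0.58, and over all tested windows -0.41 and -1.03.

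In the forkhead cluster, the 36 windows of Foxf1, Fendrr, Mthfsd, Foxc2 and Foxl1 had a median Sham level of 18.2%. Of these, 10 were higher and 2 lower in Sham-OVA, and 10 and 2 in PM-OVA, beside 13.3% higher and 22.3% lower of all tested windows in Sham and 9.26% and 34.8% in PM. With centring, 12 were higher and 2 lower in Sham-OVA and 17 and 1 in PM-OVA. Shifts were mostly gains in CpG-dense windows of the whole table as well, where levels are near 0. Of the 15362 tested windows with 5 or more CpG per 100 bp, 90.9% were under 10% in Sham. Among these 2537 were higher and 286 lower in Sham-OVA, and 2179 and 361 in PM-OVA. The largest difference of the cluster was in the Foxf1 window at chr8:121085151-121087179, 1.8 kb from its start and holding coding sequence and untranslated exon sequence. Its values were 17.5% to 20.1% (median 18.99%) in Sham, 25.2% to 36.00% (median 28.7%) in Sham-OVA, 14.1% to 20.8% (median 18.2%) in PM and 23.97% to 29.6% (median 27.4%) in PM-OVA, with no overlap within an arm. It rose by 10.3 points in Sham (log2 ratio 0.79 ± 0.10 (SE), adjusted p = 1.66e-06) and 9.05 in PM (log2 ratio 0.73 ± 0.10 (SE), adjusted p = 1.88e-06), where centring gave 10.03. The Sham difference fell under 10 points without Sham-OVA replicate 1 (9.58) or replicate 4 (9.14). The Foxf1 start window rose from 0.23% ± 0.32 to 1.04% ± 1.01 in Sham (adjusted p = 0.025) and was at 0.36% ± 0.22 and 0.79% ± 0.76 in PM (adjusted p = 0.238, limma), and the coding window between them (chr8:121084637-121085149) rose by 1.38 and 1.40 points.

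Foxc2, a single-exon gene (chr8:121116171-121118895), had 4 of 6 windows higher in Sham-OVA, 5 higher in PM-OVA and none lower in either, beside 13.3% higher and 22.3% lower of all tested windows in Sham and 9.26% and 34.8% in PM, shares that also stand beside the Mthfsd and Fendrr counts below. Among CpG-dense windows shifts were mostly gains, as given above, and the Foxc2 windows had a median Sham level of 3.42%. The strongest, a coding window of 527 bp (chr8:121116748-121117274), rose from 4.37% ± 1.17 to 8.86% ± 1.97 in Sham and from 4.09% ± 1.24 to 8.01% ± 1.91 in PM (adjusted p = 1.29e-04 and 1.29e-04, limma). Its start window rose from 3.17% ± 0.42 to 4.78% ± 1.41 and from 3.25% ± 0.84 to 4.57% ± 1.00 (adjusted p = 0.0178 and 0.0213). The other shifted Foxc2 windows differed by 1.26 to 2.83 points. Foxl1 rose at a coding window (chr8:121128253-121128753) by 1.33 points in Sham and 0.98 in PM, and its start window by 2.08 in PM (adjusted p = 0.00195), with 0.77 in Sham (adjusted p = 0.284). Mthfsd had 2 of 9 windows higher in Sham-OVA by 1.78 and 1.99 points and none shifted in PM-OVA, and its start window at 32.9% ± 1.37 was not shifted. The adjoining window inside Mthfsd was at 0.90% in Sham and was not shifted either (adjusted p = 0.135 and 0.913, limma). Fendrr, a long noncoding RNA gene that runs away from Foxf1, had 2 of 13 windows lower in Sham-OVA, with differences of -2.85 and -2.60 points, and 2 lower in PM-OVA, with differences of -3.37 and -4.03. Its shared upstream window with Foxf1 (chr8:121082770-121083193) was higher in PM-OVA, 1.18% ± 0.46 against 0.67% ± 0.54 (adjusted p = 0.0136).

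**Figure D3:**
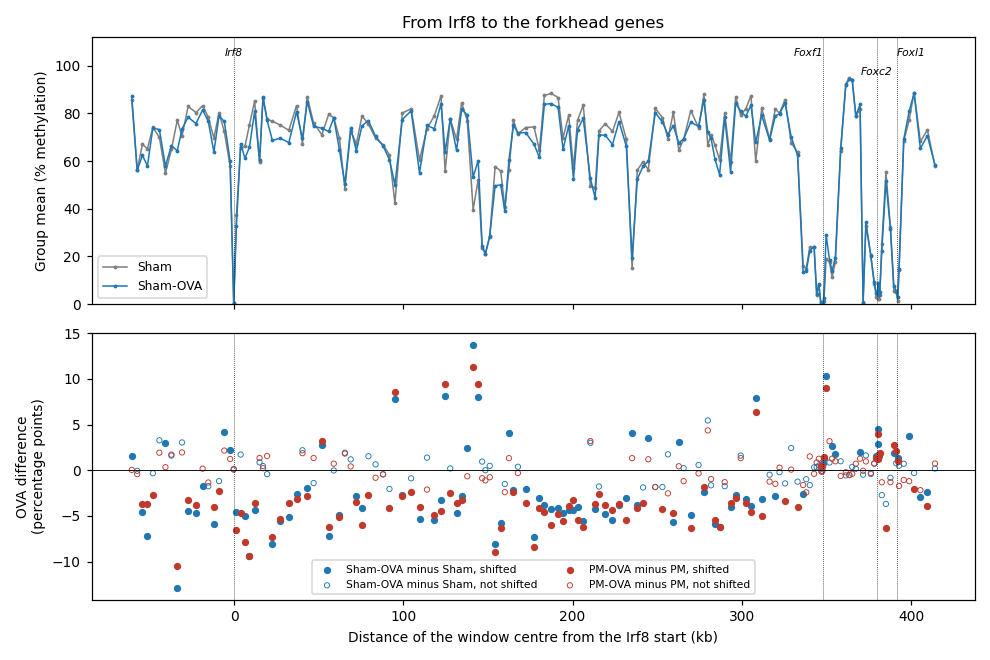
Sham and Sham-OVA group means (top, % methylation) and OVA differences in both arms (bottom, percentage points, filled where shifted) from Irf8 to the forkhead genes, against the distance from the Irf8 start in kb. Of the 86 windows between Irf8 and Fendrr 11 were higher and 45 lower in Sham-OVA. Of the 36 windows of the forkhead cluster 10 were higher and 2 lower. Over all tested windows 13.3% were higher and 22.3% lower.

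Of 25 windows of Piezo1, 13 were higher and 1 lower in Sham-OVA (beside 13.3% and 22.3% of all tested windows), and 10 and 2 in PM-OVA (beside 9.26% and 34.8%). With centring, 15 were higher and 1 lower in Sham-OVA and 17 and 1 in PM-OVA. The intron window at chr8:122523286-122525516 had values of 27.95% to 36.1% (median 31.6%) in Sham, 42.2% to 52.9% (median 47.6%) in Sham-OVA, 27.6% to 36.3% (median 33.7%) in PM and 44.01% to 53.5% (median 46.9%) in PM-OVA. No library of an OVA group was as low as any of its control group, and the level rose by 15.8 points in Sham (log2 ratio 0.94 ± 0.10 (SE), adjusted p = 1.31e-07) and 14.5 in PM (log2 ratio 0.86 ± 0.10 (SE), adjusted p = 1.70e-07). A further intron window (chr8:122516426-122519251) rose by 11.4 and 12.4 points (adjusted p = 1.03e-05 and 1.31e-06, limma).

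Gse1, a coiled-coil protein gene of 353 kb, had 133 windows, the most of any gene. In Sham-OVA 20 were higher and 40 lower (beside 13.3% and 22.3% of all tested windows), and in PM-OVA 18 and 50 (beside 9.26% and 34.8%), whereas centring gave 27 higher and 35 lower in Sham-OVA and 25 and 25 in PM-OVA. An intron window 117.0 kb from the start (chr8:120343623-120347242) was at 61.9% to 67.5% (median 64.2%) in Sham, 49.7% to 56.8% (median 51.6%) in Sham-OVA, 62.7% to 68.2% (median 64.8%) in PM and 48.5% to 56.3% (median 53.01%) in PM-OVA. It fell by 12.4 points in Sham (log2 ratio -0.73 ± 0.07 (SE), adjusted p = 2.04e-08) and fell by 12.3 in PM (log2 ratio -0.72 ± 0.07 (SE), adjusted p = 8.37e-09), with no overlap. By contrast, the intron window at chr8:120493626-120496140 rose by 10.9 points in Sham and 12.97 in PM (adjusted p = 1.79e-05 and 6.95e-07, limma). The Sham difference was 9.88 points without Sham replicate 1, which went against its label, and 9.96 without Sham-OVA replicate 1. The window at chr8:120548613-120550228 rose by 13.4 points in Sham (adjusted p = 1.10e-04) and 9.85 in PM (adjusted p = 0.00127, limma), where the PM difference passed 10 points with each library centred (10.8) and when PM replicate 1, 2, 4 or 6 or PM-OVA replicate 3, 4 or 6 was left out, reaching 11.4 without PM-OVA replicate 4.

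An intron window of Ankrd11, a chromatin regulator gene (chr8:123032595-123037694), was at 58.4% to 62.3% (median 60.2%) in Sham, 45.9% to 55.2% (median 50.9%) in Sham-OVA, 58.6% to 65.5% (median 62.7%) in PM and 45.96% to 53.02% (median 49.1%) in PM-OVA. It fell by 13.1 points in PM (log2 ratio -0.76 ± 0.07 (SE), adjusted p = 6.12e-09) and fell by 9.92 in Sham (log2 ratio -0.57 ± 0.07 (SE), adjusted p = 1.01e-06), and the groups did not overlap. In Sham it passed 10 points when Sham replicate 1 or 3 or Sham-OVA replicate 3, 4, 5 or 7 was left out, reaching -10.8. Near the other end, a window over the noncoding gene A130014A01Rik, 2.9 kb before the Zdhhc7 start (chr8:120102499-120106180), rose from 54.02% ± 3.06 to 66.9% ± 3.24 in Sham and from 56.2% ± 3.45 to 64.9% ± 2.57 in PM (differences of 12.8 and 8.66 points, adjusted p = 6.50e-07 and 5.87e-05, limma). Apart from a window in the 5S rRNA gene array given below, the remaining DMRs had differences between -12.2 and 11.4 points in either arm and lay in Gse1, near the end of Crispld2 and in the noncoding genes C230057M02Rik and A530010L16Rik. Several of these passed 10 points narrowly. The Crispld2 window came to under 10 with centring (-9.94 in Sham and -9.15 in PM). It also did so in Sham without Sham replicate 2 (-9.86) or 6 (-9.88) or Sham-OVA replicate 5 (-9.95). In PM this held without PM replicate 3 (-9.71), 5 (-9.32) or 6 (-9.68) or PM-OVA replicate 1 (-9.99), 4 (-9.56) or 7 (-9.50). The Gse1 window at chr8:120432600-120436467, a DMR in PM alone, was at -9.13 with centring, and between -9.64 and -9.97 without PM replicate 3, 5 or 6 or PM-OVA replicate 1, 3, 5 or 6. In Sham it passed without Sham-OVA replicate 7 (-10.1). The A530010L16Rik window, a DMR in Sham alone, was at -9.86 with centring, and between -9.16 and -9.94 without Sham replicate 6 or 7 or Sham-OVA replicate 1 or 2. The C230057M02Rik window, also a DMR in Sham alone, passed in PM with centring (10.9) and without PM replicate 1, 2, 4 or 6 or PM-OVA replicate 4 or 6 (10.2 to 11.1).

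**Figure D4:**
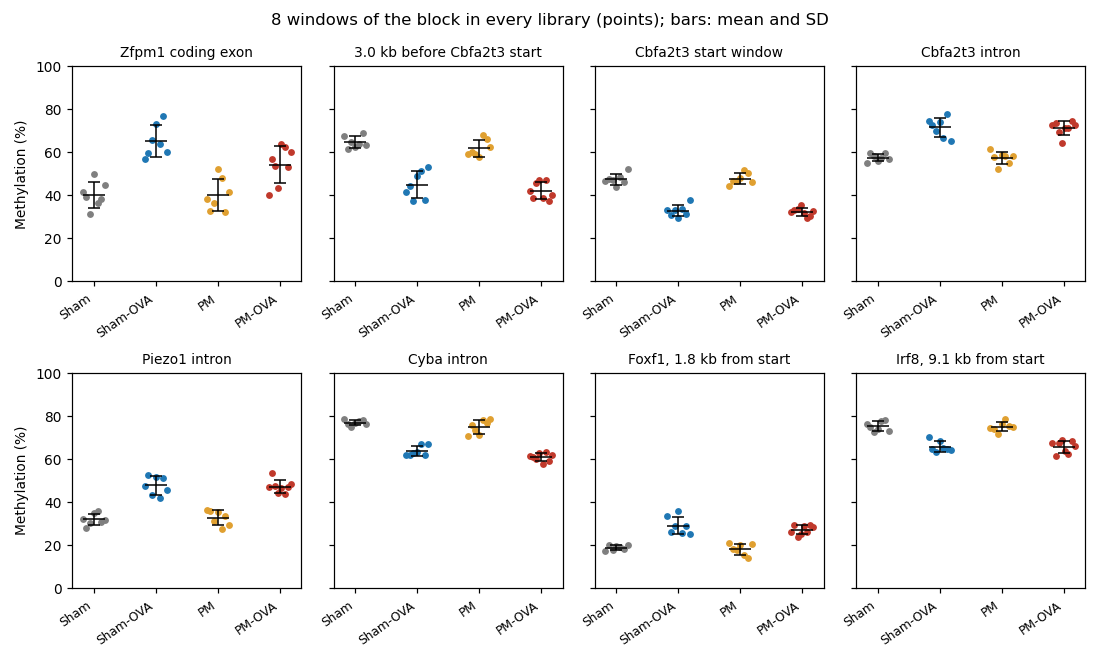
Methylation (%) of every library (points) in 8 windows of the block by group, with the mean and SD as bars. OVA groups lie above their controls at the Zfpm1, Piezo1 and Foxf1 windows and the Cbfa2t3 intron, and below them at both windows around the Cbfa2t3 start and at Cyba and Irf8, and PM and PM-OVA overlap at Zfpm1.

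The genes of the block were also grouped by role, and the counts of each list stand beside 13.3% higher and 22.3% lower of all tested windows in Sham and 9.26% and 34.8% in PM, and 0.775% and 0.584% that were DMRs. The 9 blood cell and immune genes had 101 windows, of which 20 were higher and 25 lower in Sham-OVA and 14 and 31 in PM-OVA, with median differences of -0.32 and -0.14 points and 8 and 6 DMRs. The 12 genes listed under cell cycle and DNA repair had 276 windows, and this list name is too narrow for some of them. Of these windows 31 were higher and 63 lower in Sham-OVA and 25 and 83 in PM-OVA. Their median differences were -0.15 and -0.48 points, with 4 and 4 DMRs. Of this list Gse1 and Ankrd11, genes whose roles are given above, held 133 and 36 of the windows, 40 and 12 of those lower in Sham-OVA, 50 and 13 of those lower in PM-OVA, and all of the DMRs. Genes of mitochondria, protein turnover and metabolism (17 with windows) had 166 windows, of which 32 were higher and 23 lower in Sham-OVA and 27 and 31 in PM-OVA, with median differences of 0.38 and 0.017 points and 0 and 0 DMRs. Genes of muscle, nerve, cilia and adhesion (13 with windows) had 133 windows, of which 25 were higher and 18 lower in Sham-OVA and 22 and 29 in PM-OVA, with median differences of 0.30 and -0.062 points and 3 and 3 DMRs. Centring moved the balance of every one of these lists towards higher windows. The blood cell and immune list then had 24 higher and 22 lower in Sham-OVA and 28 and 22 in PM-OVA, the cell cycle list 46 higher and 55 lower in Sham-OVA and 43 and 42 in PM-OVA, the mitochondria list 49 higher and 16 lower in Sham-OVA and 56 and 19 in PM-OVA and the muscle list 38 higher and 15 lower in Sham-OVA and 43 and 15 in PM-OVA. Usp10 and Cdh13 of these lists lay outside the block. Most start windows did not pass the test, as 3 of 9, 1 of 11, 3 of 17 and 5 of 13 in these lists were shifted in either arm, and 3 of 4 in the forkhead list. Of the 67 start windows of the block, 55 were not shifted in Sham and 54 in PM. Per arm, 35.6% of all tested windows were shifted in Sham and 44.1% in PM.

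At single start windows outside Cbfa2t3 the differences were within a few points. Dpep1, a membrane dipeptidase gene, had a start window at 60.9% ± 1.69 in Sham that rose by 5.18 points in Sham and 5.08 in PM (adjusted p = 0.00412 and 0.00268, limma). The start window of Mc1r, the melanocortin receptor gene, fell by 4.83 points in Sham (adjusted p = 1.46e-04) and its difference in PM was -2.05 (adjusted p = 0.0568). Fanca, a gene of the Fanconi anaemia repair pathway, fell by 2.80 points in Sham and fell by 2.32 in PM, from 29.3% ± 1.38 in Sham and 28.95% ± 0.95 in PM (adjusted p = 0.00343 and 0.00867). Mvd, an enzyme gene of the mevalonate pathway, rose by 2.63 points in Sham (adjusted p = 8.08e-04) with 0.36 in PM (adjusted p = 0.642). Fbxo31, an F-box protein gene, rose by 1.74 points in PM (adjusted p = 5.46e-04) with 0.94 in Sham (adjusted p = 0.0631). Start windows of Acta1, Spg7, Def8, Banp and Gse1 had differences between -1.17 and 3.13 points and were not shifted in either arm.

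Galnt2, the glycosyltransferase gene whose name the block label resembles, held no DMR in its 40 windows. Of all tested windows, 0.775% were DMRs in Sham and 0.584% in PM. It lies at chr8:124231391-124345724 and its enzyme starts O-linked glycosylation. Its start window (chr8:124231072-124231471) was at 0.63% ± 0.12, 0.58% ± 0.32, 0.66% ± 0.25 and 0.68% ± 0.24 and was not shifted. Of 40 windows 9 were higher and 5 lower in Sham-OVA (beside 13.3% and 22.3% of all tested windows), and 6 and 6 in PM-OVA (beside 9.26% and 34.8%). With centring, 12 were higher and 2 lower in Sham-OVA and 15 and 5 in PM-OVA. The windows had differences from -4.46 to 4.93 points in Sham and from -6.89 to 5.33 in PM. Neighbouring intron windows could differ in direction, since the window at chr8:124272641-124276104 fell by 4.37 points in Sham and fell by 6.89 in PM (adjusted p = 0.0014 and 3.34e-06), and the next at chr8:124276141-124278539 rose by 3.55 and 5.33 (adjusted p = 0.00365 and 2.89e-05, limma). Another, at chr8:124254990-124257986, rose by 4.93 in Sham and 3.50 in PM, and 1 at chr8:124306059-124308419 fell by 4.46 in Sham and fell by 4.41 in PM. The differences of the other shifted Galnt2 windows lay between -5.91 and 4.14 points.

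Maternal PM2.5 exposure shifted no window of the block by these criteria. Without OVA, 0 of 1444 windows were shifted (limma, 0% of all tested windows), and 86 (5.96%) had an unadjusted p under 0.05, beside 5.79% of all tested windows. With OVA 0 were shifted as well, and 89 (6.16%) had an unadjusted p under 0.05, beside 5.96%. For the interaction 0 passed, with 97 (6.72%) beside 7.40% at that p. All alternatives that were run gave 0 for each of the 3 comparisons. The smallest p of the block without OVA was at the start of Sult5a1, a sulfotransferase gene (chr8:123155087-123159104), with 60.2% to 62.4% (median 60.6%) in Sham and 62.5% to 66.5% (median 65.3%) in PM. These ranges did not overlap, which held for 4 windows of the block (0.277%) and 0.0872% of all tested windows, and the difference was 3.97 points (adjusted p = 0.696, limma). The smallest with OVA and for the interaction was an intergenic window 79.3 kb after the Irf8 start (chr8:120813770-120817619), at 75.5% to 78.6% (median 76.8%) in Sham-OVA and 71.4% to 77.1% (median 74.01%) in PM-OVA (adjusted p = 0.786, limma). These ranges overlapped, as in every tested window of the block, where 0.0301% of all tested windows had no overlap. Its interaction had an adjusted p of 0.551.

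Between Gas8 and Rhou the block crosses the 5S rRNA gene array, where fewer libraries had values than in the rest. The annotation places 51 genes for 5S rRNA, an RNA of the large ribosomal subunit, over chr8:123538786-123623745. Reads of such repeated genes may not be assigned to 1 copy. Of 61 windows in the array 21 had too few values to test, and 20 had a value in every library, against 1400 of 1405 in the rest of the block. The single untested window elsewhere was in Klhdc4. Array windows were at a median of 16.1% in Sham, against 72.1% elsewhere in the block, at 5.37 CpG per 100 bp. The SD within groups had a median of 7.29 points there and 1.64 elsewhere. Library means over its tested windows ran from 16.7% to 20.2% in Sham, 17.3% to 21.1% in Sham-OVA, 17.3% to 19.5% in PM and 17.3% to 21.6% in PM-OVA, and all 4 groups overlapped. A single array window (chr8:123619986-123621787, at the 5S gene Gm23284) was a DMR, in PM. The other shifted array window, at the 5S gene n-R5s106, differed by -4.35 points in PM. The values of the Gm23284 window were 19.5% to 37.1% (median 25.1%) in Sham, 11.7% to 26.4% (median 22.6%) in Sham-OVA, 7.37% to 37.7% (median 14.7%) in PM and 21.3% to 38.6% (median 27.5%) in PM-OVA, and the groups overlapped in both arms. It rose by 11.5 points in PM (log2 ratio 1.09 ± 0.32 (SE), adjusted p = 0.00804), with a difference of -5.79 in Sham (adjusted p = 0.306), and was 9.93 and 9.74 without PM replicate 2 or 7. It held 98 CpG in the reference, where every other DMR held 50.

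**Figure D5:**
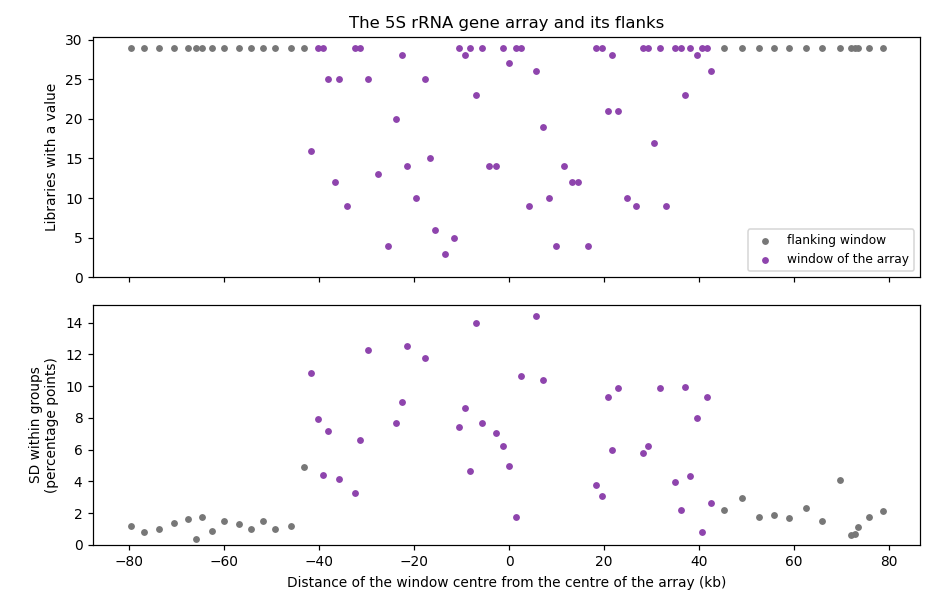
Number of libraries with a value (top, of 29) and SD within groups (bottom, percentage points) for windows of the 5S rRNA gene array and its flanks, against the distance from the array centre in kb. All flanking windows have a value in every library, and the array windows have values in 3 to 29 libraries and mostly larger SDs.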

How the data were processed

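As the labels and methods describe it, the authors made enzymatic methyl-seq libraries with an unmethylated lambda control, trimmed the reads with Trim Galore, aligned and called methylation with DRAGEN on GRCm38, and deposited a percent methylation value for sliding windows of 100 CpG that overlap annotated genes, which held a median of 100 CpG cytosines in the reference. The table gives no read counts, so depth per window is unknown. Windows were assigned to genes by position in the GENCODE M21 annotation, on the same build. Windows with at least 3 values in every group were tested with limma 3.58.1 in R 4.3.3 on log2((percent + 1)/(100 - percent + 1)), with all 29 libraries in a 4-group model and Benjamini-Hochberg adjustment over 259167 windows. Log2 ratios and their SE come from this fit, and differences are in percentage points. The fit was tested on simulated data. The authors used edgeR for their methylation test, and limma was used here because the table holds percents. Nothing says whether animals of a group came from separate litters, so p-values measure the spread between these samples. The windows, gene lists and rules were chosen with earlier results of these data known. Named windows were the 12 largest DMRs of each OVA comparison, shifted windows of Irf8, Galnt2 and the forkhead cluster, the smallest p where nothing was called, 3 start windows per gene list, and the windows at the extremes of level and length. The other DMRs were named after their values were seen. Alternatives covered the pseudocount, the scale, centring, thresholds, missing values, libraries left out and the replicate number.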

Additional observations from a re-analysis of the deposited data

Results flagged for a closer look

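In 80 groups of libraries (the 4 groups at 19 windows and for the block mean), 2 held a library far from the others by Dixon's test, where chance flags about 1 in 20 groups. At the intergenic window chr8:120813770-120817619, PM replicate 3 was at 79.8%, whereas the other PM libraries ran from 74.9% to 76.9%. At the Piezo1 intron window chr8:122523286-122525516, PM-OVA replicate 2 was at 53.5%, whereas the other PM-OVA libraries ran from 44.0% to 48.5%, and the window was called in every alternative that left out a library.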

How the results depend on the processing

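DMR counts of 22 (OVA in Sham) and 17 (OVA in PM) moved with the thresholds. A minimum difference of 5 points gave 147 and 144 DMRs (beside 15435 and 15259 of all 259167 tested windows). An adjusted p under 0.000001 gave 10 and 11 DMRs (beside 1031 and 919) and 21 and 31 shifted windows (beside 2943 and 5493). Leaving out 1 library gave 19 to 27 and 13 to 21 DMRs, 465 to 526 and 545 to 582 shifted windows, and 0 to 0 for the interaction and both PM comparisons. Over all tested windows this gave 1772 to 2419 and 1366 to 1734 DMRs, and 80248 to 95829 and 105758 to 114687 shifted windows. Without the 5S array, chosen after seeing the data, there were 22 and 16 DMRs. The other alternatives kept these counts within 1.5 times. No call reversed, and of 1332 values of named windows under the alternatives 58 lost and 36 gained a call. Centring turned the balance of higher and lower windows in several gene groups, as given with them, and moved it the same way over all tested windows. The block level rested on the averaging. The median over windows was 71.7% in Sham, 71.4% in Sham-OVA, 72.0% in PM and 70.9% in PM-OVA, and the length-weighted mean 69.4%, 69.1%, 69.8% and 68.8%. Leaving out 1 library gave means of 63.3% to 63.5%, 63.1% to 63.3%, 63.5% to 63.7% and 62.8% to 63.0% in the same order. Replicate numbers did not pair the libraries (median r of the deviations 0.017 over 42 pairs of the same number, 9 of 29 libraries closest to their own number). With the replicate number as a block there were 22 and 17 DMRs, 504 and 551 shifted windows, and 0 for the other comparisons. Depth per window is unknown.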
